A study of Mus musculus with 12 samples.

Results

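Open chromatin was compared between embryoid bodies of Foxk1 knockout and control mouse embryonic stem cells, and the regions described here are those that the knockout alone held at day 3 and again at day 5. A summit is the highest point of a peak called from ATAC-seq reads, where the Tn5 transposase inserted most often. Each of the 8 summit lists of days 3 and 5 was reduced to its 14519 highest scores on chromosomes 1 to 19 and X, which is the length of the shortest list, and summits within 250 bp of each other were merged. Of the 28074 merged regions, 212 held a summit in all 4 knockout libraries and in none of the 4 control libraries. They were divided by whether a control summit of any score, further down the list, lay within 1 kb: 198 had such a summit and 14 had none. The members were chosen by the summit positions and scores of these 8 libraries, so the difference between genotypes at these regions is a description and was given no test.

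The knockout groups were labelled FoxK1_KO at day 3 and day 5, and the controls iFoxk1_ND, from the iHA-Foxk1 line, at the same days. Every library was labelled as grown without doxycycline, and all cells were differentiated as shaken embryoid bodies under mesodermal conditions after the fibroblast feeders had been removed by plating. Day 10 libraries labelled Foxk1_KO and Control, which the choice did not use, served as the independent samples. Each of the 6 groups held 2 libraries, and nothing in the labels says that these were separate differentiations, so the spread between them may be technical. The knockout allele, the number of clones and the parental strain of each line were not given in the sources used here, so genotype and line cannot be told apart. In bulk samples of this kind, fewer open cells and less accessibility per cell cannot be told apart either.

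Foxk1 is a forkhead transcription factor, a protein that binds DNA through a winged-helix domain and recruits Sin3 corepressor complexes to silence genes in stem and progenitor cells. In ATAC-seq, promoters of widely expressed genes are open in nearly every cell, while elements far from genes open and close with cell state.

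The lists held between 14519 and 59006 summits, the shortest being control day 5 replicate 1, and read depth is unknown because the files give no counts. In both knockout day 5 lists the peak names contain D7, which goes against the day in the labels, and every knockout day 5 value below rests on the label. The score is the authors' −log10 of a p-value or q-value and grows with depth, so libraries are compared here by rank within their own list, rank 1 being the highest score.

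The 4 members with a promoter in the set that had no control summit within 1 kb are shown first, since they are the places where the lists differ at a gene's start. The sequences are the 250 bases before the start site from RefSeq (GRCm38.p6, the assembly of mm10), written 5′ to 3′ along the gene's own strand. Capitals mark matches, on either strand, to 7 short motifs that were searched. They were GTAAACA of forkhead factors, the octamer ATTTGCAT, the GATA factor motif GATAAG, the SP and KLF factor motif GGGGCGGGG, the AP-1 motif TGACTCA, the NF-Y motif CCAAT and the E-box motif CACGTG. No match of one motif overlaps that of another in the windows shown. Trim5 lies at chr7:104288107-104288356, minus strand, Trim12a at chr7:104315496-104315745, minus strand, Hprt at chrX:52987828-52988077, plus strand, and the predicted gene Gm51464 at chr7:48137145-48137394, plus strand.
Trim5: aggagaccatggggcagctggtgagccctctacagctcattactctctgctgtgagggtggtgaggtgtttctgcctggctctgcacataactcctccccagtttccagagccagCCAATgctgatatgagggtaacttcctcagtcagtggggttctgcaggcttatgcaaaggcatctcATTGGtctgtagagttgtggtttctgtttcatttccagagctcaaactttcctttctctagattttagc
Trim12a: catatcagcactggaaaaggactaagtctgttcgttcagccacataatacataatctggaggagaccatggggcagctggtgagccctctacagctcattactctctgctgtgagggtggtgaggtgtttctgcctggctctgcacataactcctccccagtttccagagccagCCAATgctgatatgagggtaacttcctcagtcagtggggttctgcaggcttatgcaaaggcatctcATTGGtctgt
Hprt: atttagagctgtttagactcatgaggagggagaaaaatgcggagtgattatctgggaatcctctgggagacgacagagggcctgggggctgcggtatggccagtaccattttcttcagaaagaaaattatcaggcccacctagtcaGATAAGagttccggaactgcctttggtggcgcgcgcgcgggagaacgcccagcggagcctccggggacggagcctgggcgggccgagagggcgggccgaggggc
Gm51464: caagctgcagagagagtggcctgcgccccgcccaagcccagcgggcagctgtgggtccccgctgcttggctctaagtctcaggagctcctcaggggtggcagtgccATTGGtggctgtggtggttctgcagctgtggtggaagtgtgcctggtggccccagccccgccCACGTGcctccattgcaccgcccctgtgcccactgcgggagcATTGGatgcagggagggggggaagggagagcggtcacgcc

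Trim5 and Trim12a encode neighbouring tripartite-motif proteins, a family of ubiquitin ligases with roles in antiviral defence. Their windows share an unbroken identical run of 191 bases, bases 1 to 191 of the Trim5 window and bases 60 to 250 of the Trim12a window, including both capital stretches. No source used here says how reads that align to more than 1 position were placed, so signal at these copies cannot be assigned to either with certainty. The Trim windows were poor in CpG, with 0 in Trim5 and 1 in Trim12a, against 17 in Hprt and 10 in Gm51464. CCAAT was found in 3 of these 4 windows, GATAAG in Hprt and CACGTG in Gm51464, and no window held GTAAACA. The CCAAT matches of Trim5 and Trim12a lie in the shared run, so these windows are not separate cases. Over all 32619 RefSeq promoter windows of the same length on these chromosomes, 34% held CCAAT, 6.57% GATAAG, 6.06% CACGTG and 3.19% GTAAACA. Such a match describes letters in a window and says nothing of binding.

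Knockout-only regions made up 0.755% of all merged regions, and 2.18% of the 9742 regions found in all 4 knockout libraries. The reverse choice, all 4 control libraries and no knockout library, gave 56 regions, which is 0.199% of all merged regions and 0.803% of the 6976 found in all 4 control libraries. The excess of knockout-only regions depended on the limit: in lists cut to 7259 summits, 33 regions were knockout-only and 39 control-only. The lists were also not equally strong at the limit. The score at rank 14519 was 1.32 in control day 5 replicate 1, where the list ends. In the other libraries it was between 15.96 and 32.4. Without control day 5 replicate 1 there were 229 knockout-only and 96 control-only regions. Taken a day at a time, 1257 regions (4.48%) were knockout-only at day 3 and 1786 (6.36%) at day 5. The 212 members are 16.9% of the first and 11.9% of the second. Of the knockout-only regions of day 3, 5 were control-only at day 5, and 12 of those of day 5 were control-only at day 3. Most knockout-only regions of either day therefore did not carry that call on the other day.

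Members ranked in the middle and lower parts of the compared lists. The median rank of the 212 members was 8673 and 8301 in knockout day 3 replicates 1 and 2, and 11532 and 11112 in knockout day 5 replicates 1 and 2. Regions found in all 8 libraries had a median of mean ranks of 4190.5 over the knockout libraries, against 9851 for members. Only 11 members ranked in the better 50% of the compared list in every knockout library. Both day 3 ranks were better than both day 5 ranks for 108 members, and the reverse held for 11, while the other members overlapped between days. The same counts for all merged regions are not given here, so this order cannot be called a trait of the members. The compared lists differ between days in the same libraries: gene ends held 51.9% of the compared summits in both knockout libraries of day 3, and 61.9% and 60.5% at day 5. The part of this in the ranks was not tested.

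**Figure D1:**
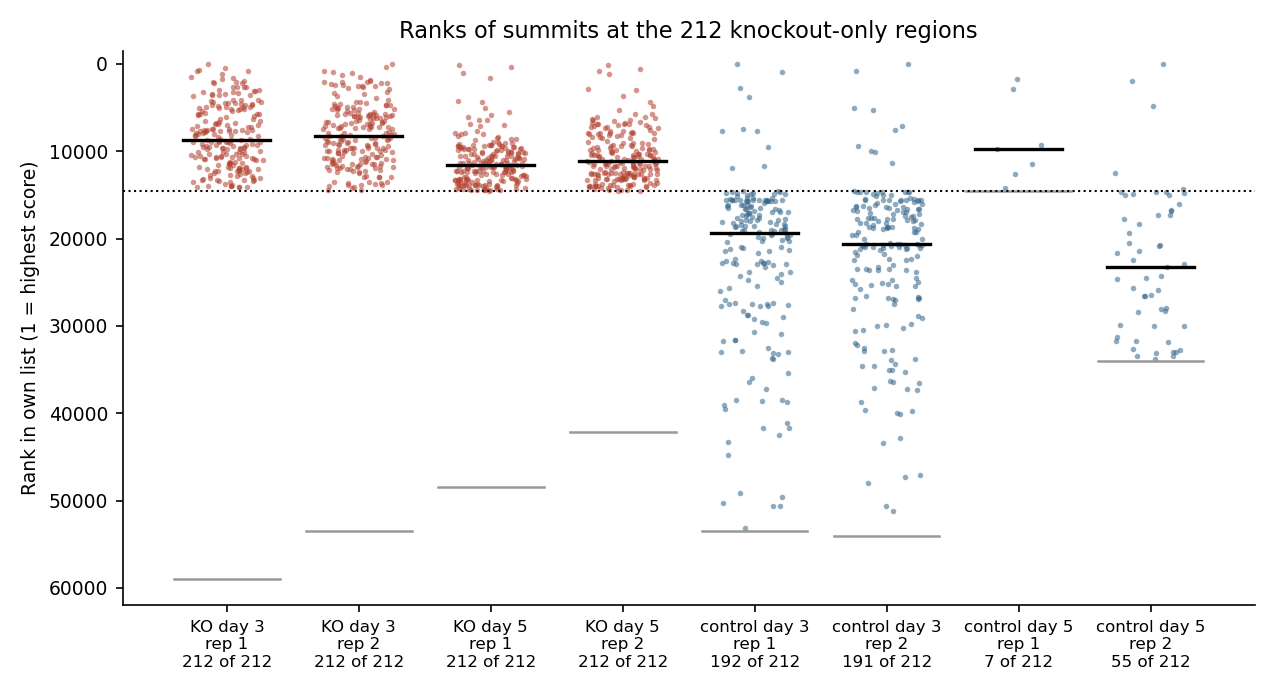
Rank within its own list of the summit at each of the 212 regions, for the 4 knockout libraries (red) and for the best-ranked control summit within 1 kb (blue); the vertical axis runs from rank 1 at the top, black bars are medians, grey bars mark the list's last rank and the dotted line the limit of 14519. The counts under the labels give the regions with a summit within 1 kb, 192 and 191 in the day 3 control libraries but 7 and 55 in those of day 5.

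In the controls, most members were present but further down the list. A control summit of any score lay inside the region for 131 members, 1 to 250 bp away for 58, and from there to 1 kb for 9. By library, 192 and 191 members had a summit within 1 kb in control day 3 replicates 1 and 2, at a median rank of 19313 and 20645. Control day 5 replicate 1 had 7, and its list ends at the limit itself, so that no lower-ranked summit exists there. Control day 5 replicate 2 had 55, at a median rank of 23215 in a list of 34040. At day 3 the difference between the genotypes at nearly all members was thus a difference of rank within lists of similar length (53456 to 59006), and not presence against absence. Both days contributed near control summits for 53 members, day 3 alone for 143 and day 5 alone for 2.

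For 14 members a control summit within 1 kb was itself among the compared ones, and 7 of these had a control summit of any score within 250 bp. Tmem267, a gene of a transmembrane protein, is among the 14 (gene 633640, member chr13:119488405-119488407). The member lay 319 bp from the start of Tmem267 and 21 bp from the start site of 3110070M22Rik, a gene of the opposite strand. It ranked 773 and 976 in the knockout at day 3, and 413 and 536 at day 5. Control summits 313 to 342 bp away ranked 2739 and 5244 at day 3, and 1782 and 4795 at day 5. The control-only region chr13:119488063-119488092 lies beside it, at the Tmem267 start site. Each genotype thus had its own compared summit there, a short distance apart. The member with the best mean rank of all (chr9:3004220) had no gene within 100 kb. Control summits 820 bp away ranked 62, 69 and 57 in 3 libraries, ahead of the knockout ranks 791, 339, 108 and 98. No list of artefact-prone regions was used here.

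The other 6 of the 8 best-ranked members with a control summit within 1 kb had it past the limit, at ranks from 15543 to 36438. Cldn34c1, a claudin-family gene of chromosome X (gene 73061, chrX:123103480-123103653, at its start), ranked 1621, 2306, 4415 and 2985 in knockout day 3 replicates 1 and 2 and day 5 replicates 1 and 2. Its control summits ranked 36438 and 35225 at day 3 and 26625 in day 5 replicate 2, with none in day 5 replicate 1. That the knockout ranks come ahead of the control ranks at this gene follows from how members were chosen. Inside the predicted gene Gm525 (gene 217071, chr11:89081870-89081885) knockout ranks were 5787, 3275, 1655 and 1131, and control ranks 31967 in day 3 replicate 2 and 17327 in day 5 replicate 2. This region is not restricted to the knockout at day 10, where it ranked between 208 and 289 in all 4 libraries. Near Gm40469 (gene 105244947, chr8:20557716-20557833) the knockout ranks were 2682, 1865, 6105 and 6486 and the day 3 control ranks 18483 and 24692. Near the olfactory receptor gene Olfr502 (gene 258734, chr7:108499786-108499961) they were 3541, 2552, 6409 and 6168, against 24713 and 17652. A pair of gene-free regions completed this group. At chr1:111581040-111581226 the knockout ranked 706, 2377, 8595 and 5788, and the day 3 controls 15543 and 16425, near the limit. At chr3:22730463-22730482 the knockout ranks were 4536, 6886, 5025 and 3656, and a control summit within 1 kb ranked 16396 in day 3 replicate 2 and 31730 in day 5 replicate 2.

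The 14 members with no control summit within 1 kb are the places where the control lists held nothing at any score. Of these, 11 had no control summit within 10 kb in any of the 4 libraries. The 14 had a median region width of 60 bp, against 115.5 bp in the other members. The largest widths were alike, 424 bp and 438 bp. Both day 3 ranks were better than both day 5 ranks in 9, both day 5 ranks were better in 1 (Hprt), and the days overlapped in 4. Among all 212 members the first order held for 108, and its share over all merged regions is not given here. Chromosome 7 held 6 of the 14, 3 of them in 1 cluster described below. Among these 3 are Trim5 and Trim12a, which lie in identical sequence and may not be separate signals. The chromosome held 22 of the 212 members and 1879 of the 28074 merged regions.

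**Figure D2:**
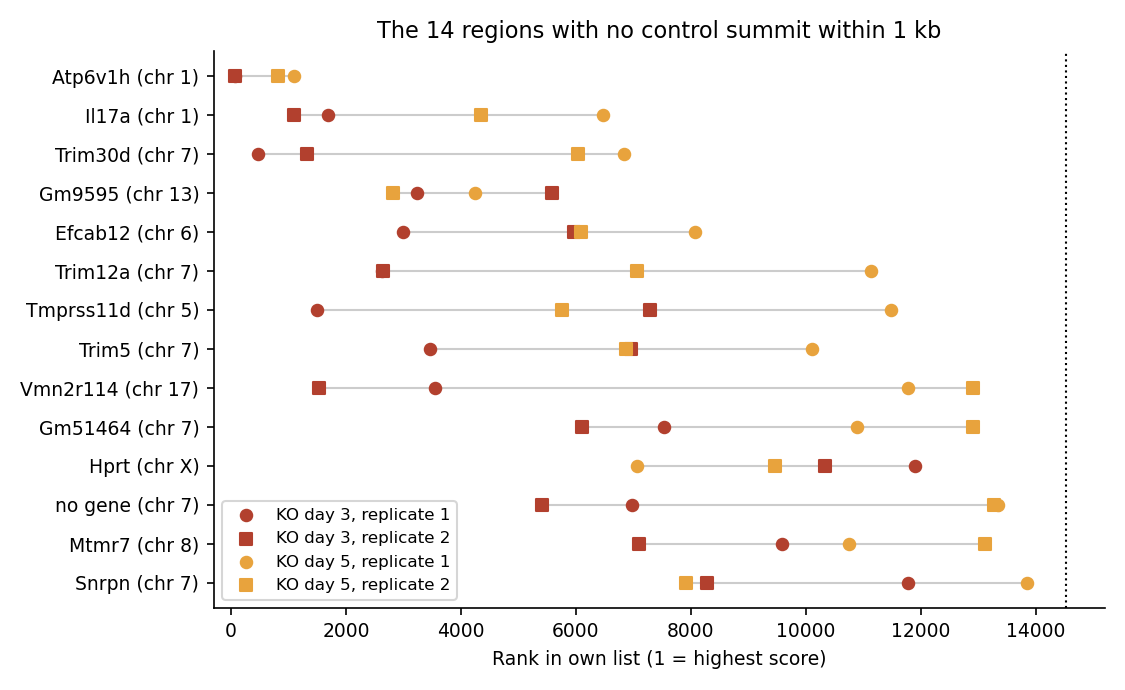
Rank in each knockout library (horizontal axis, 1 being the highest score, dotted line at 14519) of the 14 regions with no control summit within 1 kb, named by the nearest or containing gene; circles and squares are replicates 1 and 2, red is day 3 and orange day 5. Atp6v1h holds the best ranks, between 68 and 1093, and Hprt is the only region of the 14 with both day 5 ranks ahead of both day 3 ranks.

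Atp6v1h encodes subunit H of the vacuolar proton pump that acidifies lysosomes (gene 108664). The member inside it, chr1:5110762-5110823, ranked 70 and 68 in the knockout at day 3 and 1093 and 819 at day 5, with scores of 271 and 316 and then 107 and 87.1. Its nearest control summit was 2099 bp away in day 5 replicate 2, and 27495 to 27523 bp away in the other control libraries. The knockout libraries were thus high at both days and the control lists empty at the position itself.

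Near Il17a, the gene of a cytokine made by T helper cells (gene 16171), chr1:20744022-20744130 ranked 1684 and 1100 at day 3 and 6463 and 4344 at day 5, and lay 9526 bp from the gene. The nearest control summit was 30333 bp away. Inside Efcab12, which encodes a protein with EF-hand calcium-binding motifs (gene 212516), chr6:115824207-115824259 ranked 2985 and 5961 at day 3 and 8076 and 6081 at day 5. Control summits came as close as 5256 bp there, in day 3 replicate 2. Inside Tmprss11d, a membrane-bound serine protease of airway epithelium (gene 231382), chr5:86318505-86318549 ranked 1500 and 7288 at day 3 and 11487 and 5751 at day 5, so that the days overlapped. Near Vmn2r114, a pheromone receptor gene (gene 666002), chr17:23245260-23245468 ranked 3544 and 1531 at day 3 and 11772 and 12909 at day 5.

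Hprt encodes a purine salvage enzyme, and the locus is widely used in mouse stem cells as a landing site for transgenes (gene 15452). No source used here says where the transgene of the iHA-Foxk1 line sits. The member chrX:52988082-52988129 lay 4 bp past the start site, next to the window printed above. It ranked 11898 and 10327 in the knockout at day 3 and 7070 and 9460 at day 5, so it was open in all 4 libraries without ranking high. The nearest control summit was 64628 to 64963 bp away, depending on the library, and the stretch of 141 kb around it was free of control summits.

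Gm51464 held a member 142 bp from its start (gene 115486489, chr7:48137537-48137961), at ranks 7528 and 6104 at day 3 and 10887 and 12904 at day 5. All 4 control libraries had a summit between 5218 and 5325 bp away. Inside Mtmr7, a phosphoinositide phosphatase gene (gene 54384), chr8:40610160-40610318 ranked 9588 and 7097, then 10755 and 13124. A region of chromosome 7 with no gene within 100 kb, chr7:55667196-55667414, ranked 6981 and 5407, then 13342 and 13270. Inside Snrpn, an imprinted gene of an RNA splicing protein (gene 20646), chr7:60244382-60244427 ranked 11777 and 8285, then 13847 and 7913. Gm51464 and the 3 regions after it each ranked between 12904 and 13847 in at least 1 day 5 library, near the limit.

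Along the chromosomes, members were scattered. Clusters were set as at least 3 members with no more than 500 kb between neighbours, and 7 of the 212 members (3.3%) fell into 2 clusters. Among the 56 control-only regions 6 (10.7%) fell into 2 clusters. The share was 85.8% among the 6316 regions of all 8 libraries. It was 0 among the 271 regions of all 4 knockout libraries and 1 control library. These sets differ in size, so the shares are not a like comparison. The median distance between neighbours was 6150131 bp for members and 16164384 bp for control-only regions. As a share of merged regions, members ran from 0.149% on chromosome 19 (1 member) to 1.17% on chromosome 7 (22 members), with 1.05% on chromosome 13 and 1.04% on chromosome 4. Control-only regions on chromosome 7 were 0.0532%, and their highest share was 0.602%, on chromosome 14.

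**Figure D3:**
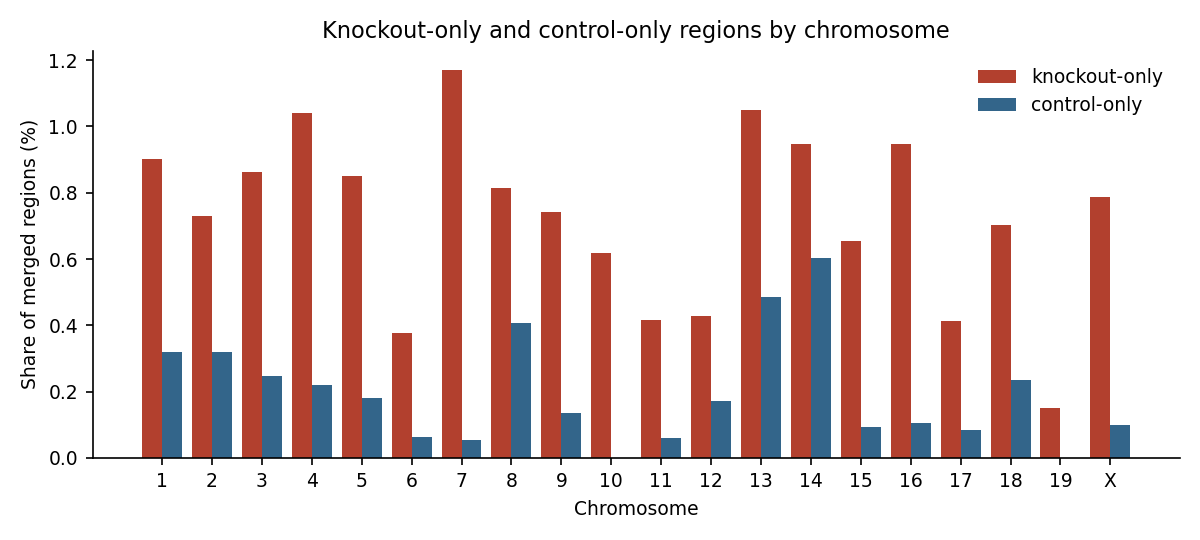
Knockout-only (red) and control-only (blue) regions as a share in percent of the merged regions of each chromosome (horizontal axis, 1 to 19 and X). Chromosome 7 has the highest knockout-only share, 1.17%, and chromosome 19 the lowest, 0.149%.

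The chromosome 7 cluster spans 641196 bp (chr7:103861070-104502266) and holds 4 members, 3 of them with no control summit within 1 kb. At the start of Trim5 (gene 667823), chr7:104288200-104288277 ranked 3454 and 6961 in the knockout at day 3 and 10100 and 6871 at day 5. At the start of Trim12a (gene 76681), chr7:104315542-104315601 ranked 2618 and 2640, then 11139 and 7063. The Trim5 and Trim12a members both lie within the identical run of 191 bases described above. They therefore cannot be counted with certainty as 2 separate signals. Inside Trim30d (gene 209387), chr7:104502258-104502266 ranked 467 and 1327, then 6839 and 6029. Day 3 ranks were ahead of day 5 ranks without overlap at Trim12a and Trim30d, and the days overlapped at Trim5.

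Trim5 and Trim12a lay in the same stretch of 109 kb that was free of control summits, in which each of the 4 knockout libraries had 4 summits of any score. Around Trim30d the control-free stretch was 125 kb, with 5, 6, 5 and 4 knockout summits. The whole cluster was not closed in the controls: they had 17 and 20 summits there at day 3 and 5 and 13 at day 5, against 25, 24, 23 and 21 in the knockout. The fourth member, 7863 bp from the embryonic globin gene Hbb-y (gene 15135, chr7:103861070-103861123), ranked 13077 and 8602, then 10326 and 9608. Both day 3 control libraries had a summit inside it, at ranks 17864 and 15665.

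**Figure D4:**
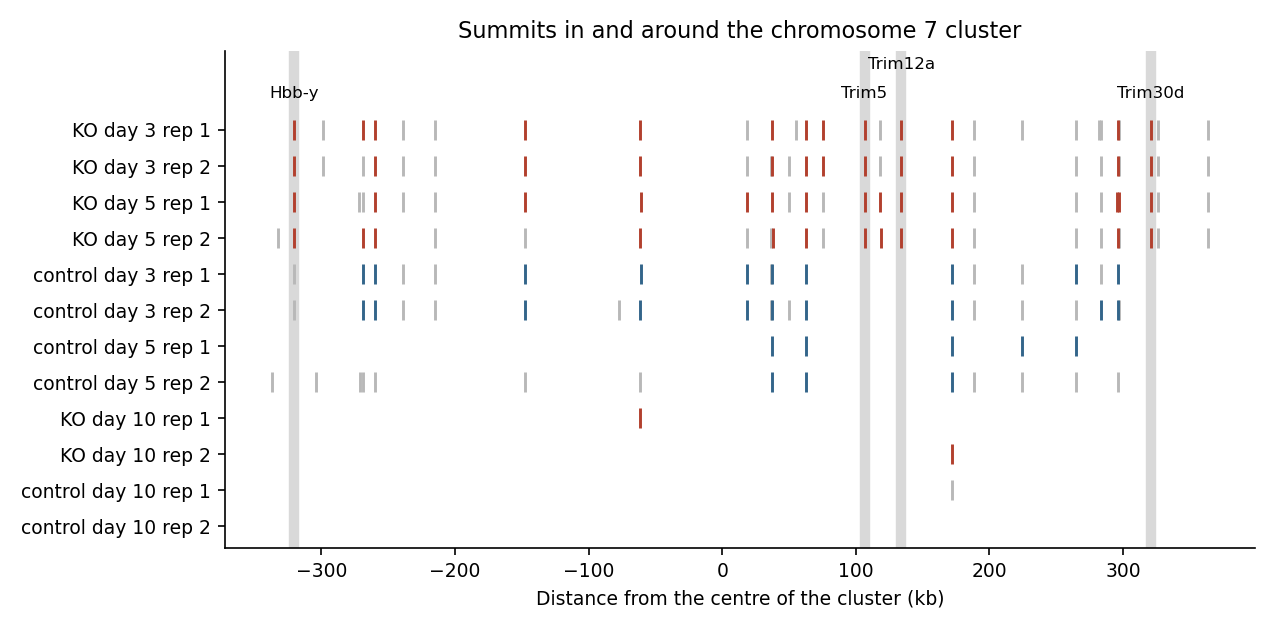
Summits of any score in 12 libraries (rows) by distance in kb from the centre of the chromosome 7 cluster; coloured bars are compared summits (red knockout, blue control), grey bars summits of lower rank, and the shaded columns the 4 members, named by gene. No control library has a summit at Trim5, Trim12a or Trim30d, and between Trim5 and Trim12a there are knockout summits alone, while both genotypes have summits between Trim12a and Trim30d.

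The other cluster, chr13:61422419-62253701, holds 3 members over 831282 bp. Near Gm9595 (gene 100861651), chr13:61804188-61804242 ranked 3236 and 5580 at day 3 and 4246 and 2823 at day 5. It lay in the longest control-free stretch of the 14 regions, 413 kb, in which the knockout libraries had 8, 7, 10 and 5 summits. The flanking members had control summits at lower rank. Near Cts7, a cathepsin protease gene of the placenta (gene 56092, chr13:61422419-61422456), knockout ranks were 3413, 6020, 5902 and 7902 and day 3 control ranks 17645 and 17500. Near the zinc finger gene Zfp808 (gene 630579, chr13:62253654-62253701), they were 5132, 9978, 12982 and 10889, against 18301 and 21719. Control-free stretches were looked at after the members were known, and were not compared with other parts of the genome.

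Members were more often outside genes than inside them or at their ends. Of the 212, 24 (11.3%) were within 1 kb of an end of a protein-coding gene, 53 (25%) inside a gene and 135 (63.7%) elsewhere. No gene end lay within 100 kb, and no gene contained the region, for 84 members (39.6%). Among regions in all 8 libraries the gene-end share was 79.1%, among all merged regions 41.3%, and among the control-only regions 23.2%. Regions in all 4 knockout libraries and 1 control library are close to members in rank (median of mean ranks 9698.5). Of those 271, 25.1% were at gene ends and 24.4% had no gene within 100 kb. Members had the largest share without a nearby gene of these 5 sets, a difference that was not tested. In the 14 members without a control summit within 1 kb, the counts were 4 at gene ends, 6 inside genes and 4 elsewhere.

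**Figure D5:**
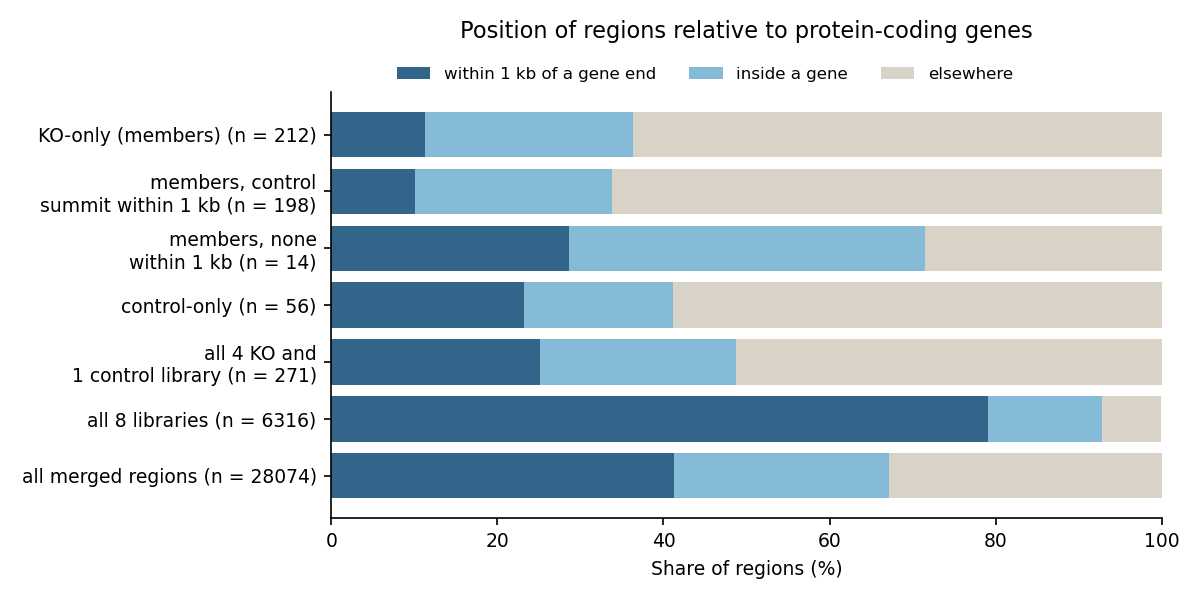
Share in percent of regions within 1 kb of a protein-coding gene's end (dark blue), inside a gene (light blue) or elsewhere (grey), for the members and their 2 subsets and for the sets they are compared with, n beside each name. Regions elsewhere make up 63.7% of members and 7.16% of regions found in all 8 libraries.

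Of the 24 members at gene ends, 20 had a control summit within 1 kb. After Tmem267 and Cldn34c1, the best-ranked of these were at Zfp429, a zinc finger gene, Cpne8, a copine that binds membranes with calcium, Gm13286, Gm2897, Gm51792 and Gm51793. They were followed by Ksr2, a scaffold of MAP kinase signalling, Shisa3, Gm3752, Gpr45, an orphan receptor, Prr36, Gpr139, another orphan receptor, Ncald, a neuronal calcium sensor, and Fam205a3. Control summits within 1 kb were themselves among the compared ones at Cpne8, Gm2897 and Gm3752. At Gm3752 they lay 521 to 846 bp away and ranked 897, 846, 2833 and 1923, ahead of every knockout rank there (10627 to 11551). A start site within 1 kb was in the promoter table for 22 of the 24. Their windows had a median GC content of 63.4% and 15 CpG, close to the 62.4% and 18 of the 4129 windows near regions of all 8 libraries, and above the 52.4% and 6 of all windows. Of the 22 windows, 4 held CCAAT, 3 GGGGCGGGG, 2 GATAAG, 1 TGACTCA, 1 CACGTG and none GTAAACA or ATTTGCAT. Over all windows the shares were 34% for CCAAT, 10.5% for GGGGCGGGG, 4.48% for TGACTCA and 1.61% for ATTTGCAT.

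Few regions of any kind lay near the listed genes, members included. In 19 gene lists with 355 matched symbols, 619 merged regions lay in or near a listed gene and 1 of these was a member, at Snrpn in the list of imprinted genes (1 of 65 regions). Members were 0.755% of all merged regions, so that a single list holds few or none whatever its genes. A count of 0 in a single list therefore says nothing about the members. Of the 56 control-only regions, 4 were among these 619, and control-only regions were 0.199% of all merged regions. Over all lists together, members thus had a lower share than among all merged regions, and control-only regions a higher one. Neither difference was tested. A region with no gene within 100 kb was given no gene name. Such regions were 39.6% of members, 16.1% of control-only regions and 12.1% of all merged regions. The part of this in the shares was not tested. None of the 28 regions near primitive streak genes, 59 near cardiac regulators, 34 near pluripotency genes, 60 near Wnt ligands and targets or 65 near forkhead genes was a member. The same was true of the 14 regions near fibroblast markers of the feeder layer and of the 25 near Foxk1 partners and Sin3 components.

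Day 10 libraries were not used to choose the members. Each was reduced to its 4028 highest scores, the length of the shortest list. Of the 212 members, 4 and 7 had a summit within 250 bp in the knockout replicates 1 and 2, and 2 and 2 in the controls. The mean shares were 2.59% ± 1 (SD, n = 2) in the knockout and 0.943% ± 0 in the control, a difference of 1.65 percentage points (two-sided exact permutation test, p = 0.333, the smallest that 2 against 2 allows). With full lists the counts were 4 and 7 against 10 and 5, and the difference was −0.943 points (exact permutation p = 0.667). Full control lists were longer, 10548 and 7764 against 4028 and 4755. For regions of all 8 libraries the matched shares were 33.3% ± 2.02 and 43.9% ± 2.05. Among the 56 control-only regions they were 8.04% ± 1.26 in the knockout and 5.36% ± 0 in the control. That is a difference of 2.68 points, in the same direction as in members and larger. With full lists it was −6.25 points. Whether members differ from control-only regions at day 10 was not tested.

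At day 10, with lists cut to 4028 summits, 2 members had a summit in both knockout libraries and neither control (0.943% of members is 2 regions, and 0.367% of all merged regions had that pattern). None had a summit in both controls and neither knockout library (1.51% of all merged regions). With full lists the counts were 1 and 1, the latter at Zfp704, a zinc finger gene, with control ranks of 7259 and 4148. The pair found with the shortened lists lay away from genes. At chr11:71384103-71384143 the knockout ranks were 3910 and 3886, with no control summit. At chr18:79724469-79724902 they were 3753 and 1976, and 1 control library had a summit at rank 10424. None of the 14 members with no control summit within 1 kb at days 3 and 5 had a summit within 250 bp in any day 10 library, knockout included, and none of their control-free stretches held a day 10 summit of any score. The short day 10 lists allow no statement on whether these positions were closed.

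At the limit itself, the members ranked last were near Gm51793 (rank 14516 in knockout day 5 replicate 2, score 17.2), at chr10:29959288-29959496 (rank 14508, same library) and inside Galnt13 (rank 14502 in knockout day 5 replicate 1). Just outside by a knockout rank were regions at Cast (14536), 2210408I21Rik (14543) and Bok (14548). On the control side, members at chr8:62417838-62417895, Fshb and chr17:52095756-52096024 had control summits at ranks 14545, 14562 and 14589. Regions at chr15:30042813-30043198, Dock1 and Sh2d4b were no members, with control summits at 14491, 14474 and 14388. Beyond these, 300 regions had 3 of 4 knockout and no control summit, and in 271 of them the missing knockout library had a summit further down.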

How the data were processed

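ATAC-seq summits of 8 libraries (2 in each of 4 groups, taken from the labels) were analysed, with 4 libraries of day 10 as independent samples. Bowtie2 2.2.4, MACS2 and mm10 are named in the submitters' processing notes. Peak names of day 10 lack the duplicate-removal tag of the other days. The deposited value is a −log10 p-value or q-value per summit, by the authors, with 1 list per library and no pooling. Which of the pair it is, and the treatment of reads with several positions, were not given in the sources used here.

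Summits were ranked by score, cut, merged by single linkage at 250 bp and annotated with RefSeq genes of GRCm38.p6 (21627 protein-coding genes, nearer of both ends) using Python 3.11.15 and pandas 2.3.3. The planned start site was replaced by the nearer gene end, since strand is in the promoter table alone, which has no windows for some genes. The calling code was run on simulated lists in which true regions scored above all noise. That run checks the code alone and not the calling at a rank limit in real lists. Members and lists were chosen with earlier results of these data known. Named members are all 14 without (the rule allowed 15) and the 8 best-ranked with a control summit within 1 kb, the 20 best-ranked at gene ends, clusters, day 10 and list members. Y and mitochondrial summits were left out. Other list lengths, merging, absence rules, cluster gaps and left-out libraries were tried.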

Additional observations from a re-analysis of the deposited data

Results flagged for a closer look

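On the chromosomes left out of the comparison, 1 region was found in all 4 knockout libraries with no control summit within 1 kb, above the score at rank 14519 of each library. It lies on chromosome Y (chrY:809127-809252), and its nearest control summit of any score was 56345 bp away. It is reported because it is signal in data that the comparison did not use. Of 89 regions on Y and the mitochondrial genome, 3 were knockout-only and 1 was control-only. Full lists held 242, 229, 167 and 142 summits on Y in the knockout libraries and 170, 179, 18 and 48 in the controls.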

How the results depend on the processing

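Membership depended on the length of the lists. With N divided by 2 there were 33 members, of which 11 were among the 212, against 39 control-only regions, so the knockout excess was not seen at that length. Of the 33, 12.1% had no control summit within 1 kb. With full lists there were 958, which overlapped 23 of the 212, and 90.9% had none. The control-only regions were then 69, of which 53 (76.8%) had no knockout summit within 1 kb. Leaving out the shortest list and raising N to 34040 gave 851 knockout-only and 375 control-only regions, and 27.8% of the former had none. Asking for no control summit of any score within 250 bp left 23 members (6 in the reverse direction), 60.9% of them with none within 1 kb, and asking for it within 1 kb left 14 (0 in the reverse direction), by construction 100%. The 6.6% with no near control summit became 74.1% when nearness was judged on the day 5 control lists alone, which are shorter, 7.55% on those of day 3, and 11.3% with lists cut to 34040 and without the shortest. These last 3 were added after seeing the data. In lists of day 3 cut to the same 53456 summits, 16 of the 212 members (7.55%) and 3 of the 56 control-only regions (5.36%) lacked any near summit from the opposite genotype, so the counts of 14 and 0 on full lists are not a like comparison.

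Leaving out libraries in turn gave between 229 and 341 members (341 without knockout day 5 replicate 1 and 229 without control day 5 replicate 1, and 248 without either knockout library of day 3), between 59 and 112 control-only regions (90 without control day 3 replicate 1, 96 and 112 without control day 5 replicates 1 and 2), and between 5.23% and 6.34% with no near control summit. A rule over fewer libraries is looser by construction. Members in clusters were 3 with a gap of 250 kb, 16 with a gap of 1 Mb, and 3 among the 14. The gene-end share was 28.6% among the 14 and 4.38% with full lists, against 11.3%. Merging at 100 or 500 bp and keeping ties moved no count by over 1.5 times. The day 10 difference was −0.943 points with full lists, between 0.943 and 2.36 without each library, 0 among the 14, and 1.65 with a replicate block (pairs of replicate numbers, exact permutation p = 0.5, the smallest possible). The labels give the numbers no shared source, and with 2 pairs the pairing was not checked further.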
